A study of Mus musculus with 12 samples.

Results

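Cytotoxic effector genes encode the proteins with which killer lymphocytes destroy target cells, together with molecules that travel with them. The 10 genes described here were taken by symbol: *Prf1*, *Gzma*, *Gzmb*, *Gzmk*, *Gzmm*, *Nkg7*, *Ctsw*, *Fasl*, *Crtam* and *Ccl5*. All 10 were present among the 12809 genes of the expression table, and all 10 passed the limit on low values, 1 CPM in 3 or more libraries, which 11595 genes passed. CPM are read counts relative to library size, here also scaled by TMM, a correction for differences in library composition.

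RNA was measured in T cells of LN from female mice, sorted into CD4 and CD8 cells, in 4 groups of 3 libraries. B6 CD4 and B6 CD8 T cells came from C57BL/6 mice aged 10 weeks, and FlipFlop CD4 and FlipFlop CD8 T cells from mice aged 14 weeks, so that strain and age cannot be told apart. These ages are those of the labels, and the FlipFlop age lies above the range that the study's methods give for mice in general. In FlipFlop mice the *Cd8a* loci encode CD4 proteins (the 4in8 allele, made in 129R1 ES cells) and the *Cd4* loci encode CD8αβ.1 proteins (the 8in4 allele, made in B6 ES cells), and both alleles are carried on both copies of chromosome 6. Cells that use the *Cd8a* locus for their coreceptor, B6 CD8 and FlipFlop CD4, are called cytotoxic-lineage cells below, and those that use the *Cd4* locus, B6 CD4 and FlipFlop CD8, are called helper-lineage cells. *Zbtb7b*, which encodes the helper-lineage factor ThPOK, averaged 196.0 CPM in the B6 CD4 group, 168.1 CPM in the FlipFlop CD8 group, 1.55 CPM in the B6 CD8 group and 2.29 CPM in the FlipFlop CD4 group. *Cd8a* measured 1489 CPM in the B6 CD8 group, 145.3 CPM in the FlipFlop CD8 group, 0.946 CPM in the B6 CD4 group and 0.921 CPM in the FlipFlop CD4 group, which follows the labelled coreceptor. *Cd8b1*, which encodes the CD8β chain, did not follow it in FlipFlop T cells, at 1829 CPM in the FlipFlop CD4 group and 137.3 CPM in the FlipFlop CD8 group, beside 1885 CPM in the B6 CD8 group and 23.8 CPM in the B6 CD4 group. The table rested on 26600000 to 33100000 reads per library, and 3 reads, the most that 0 observed reads leave room for, are worth 0.0857 to 0.120 CPM. This covers counting error only. In no group did the mean of an effector gene lie at or under that level, although the genes differed widely in reads, from 11 to 138 per library for *Gzma* to 199 to 13903 for *Nkg7*.

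Killer cells store perforin, a pore-forming protein, and granzymes, serine proteases that cleave proteins inside the target, in secretory granules that are released at the contact with the target. A separate route uses Fas ligand on the cell surface, which triggers a death receptor on the target. In resting lymph nodes most T cells are naive, and naive CD8 T cells hold little granzyme protein until they are stimulated. The lineage of a T cell is set in the thymus by ThPOK in helper cells and Runx3 in cytotoxic cells, and Runx3, T-bet and Eomes are known regulators of perforin and granzyme genes.

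The genes lie on 8 chromosomes (GRCm38). *Gzma* (chromosome 13, 113093825 to 113100981) and *Gzmk* (chromosome 13, 113171608 to 113225908) are neighbors on the minus strand, 70.6 kb apart. *Prf1* (61297833 to 61304680) and *Gzmm* (79689020 to 79695261) share chromosome 10 at a greater distance. The exons of *Ctsw* (chromosome 19, 5465043 to 5468507) overlap those of *Fibp* on the opposite strand, and since the counting is not stated to use strand, reads in the overlap cannot be assigned with certainty. *Fibp* itself measured 22.3 to 28.5 CPM as group means. Its log2 difference was -0.24 for B6 CD8 minus B6 CD4 T cells, beside 2.29 for *Ctsw*. For FlipFlop CD4 minus FlipFlop CD8 T cells the values were 0.26 for *Fibp* and 1.93 for *Ctsw*. For FlipFlop CD8 minus B6 CD4 T cells they were -0.33 for *Fibp* and -0.19 for *Ctsw*. The part of *Fibp* reads in the level of *Ctsw* was not tested.

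RefSeq promoter sequences (GRCm38.p6) were found for 7 of the 10 genes. Shown are the 250 bases before the start of *Prf1* and *Nkg7*, which were higher in cytotoxic-lineage cells of both strains, and of *Fasl* and *Gzmb*, which were higher in FlipFlop CD8 than FlipFlop CD4 T cells. Capitals mark matches on either strand to letters bound by Runx (TGTGGT), T-box (GGTGTGA), NFAT (TGGAAA) or AP-1 (TGANTCA) factors.
Prf1 promoter (chr10:61297586-61297835, plus strand): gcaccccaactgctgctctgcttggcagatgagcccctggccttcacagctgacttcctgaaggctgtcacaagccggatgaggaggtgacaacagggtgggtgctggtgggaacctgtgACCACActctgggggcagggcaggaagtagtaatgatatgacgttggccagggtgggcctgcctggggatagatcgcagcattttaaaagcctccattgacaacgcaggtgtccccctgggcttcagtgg
Nkg7 promoter (chr7:43436888-43437137, plus strand): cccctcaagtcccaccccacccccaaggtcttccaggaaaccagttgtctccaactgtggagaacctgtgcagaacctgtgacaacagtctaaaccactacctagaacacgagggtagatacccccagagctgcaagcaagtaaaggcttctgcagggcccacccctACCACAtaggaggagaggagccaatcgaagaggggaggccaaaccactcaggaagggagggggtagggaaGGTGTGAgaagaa
Fasl promoter (chr1:161788496-161788745, minus strand): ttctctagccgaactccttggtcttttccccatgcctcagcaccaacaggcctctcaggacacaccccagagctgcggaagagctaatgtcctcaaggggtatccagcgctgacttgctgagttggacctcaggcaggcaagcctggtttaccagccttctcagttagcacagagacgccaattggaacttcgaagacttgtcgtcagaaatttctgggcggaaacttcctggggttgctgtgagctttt
Gzmb promoter (chr14:56262335-56262584, minus strand): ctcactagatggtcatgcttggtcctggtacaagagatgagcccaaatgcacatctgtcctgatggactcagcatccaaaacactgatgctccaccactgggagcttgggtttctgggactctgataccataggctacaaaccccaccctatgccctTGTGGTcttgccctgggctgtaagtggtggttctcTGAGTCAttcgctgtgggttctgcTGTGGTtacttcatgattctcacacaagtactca
The Runx letters were matched once in *Prf1*, 130 bases before the start, once in *Nkg7*, 83 bases before it, and 2 times in *Gzmb*, 93 and 34 bases before it. The T-box letters were matched in *Nkg7* at 13 bases, and the AP-1 letters in *Gzmb* at 58 bases. The GENCODE gene of *Nkg7* begins at 43437073, inside the window shown, and the T-box match lies within that gene. The *Fasl* window held none of these letters. Of 32851 promoters of the same length, 14.0% held the Runx letters, 3.33% the T-box letters, 18.6% the NFAT letters and 6.75% the AP-1 letters, so that a match is a description of the sequence and no more. For *Prf1* and *Gzmb* the stretch just after the RefSeq start was not found in a GENCODE transcript, and for *Nkg7* and *Fasl* it was. This did not compare the start positions. The GENCODE genes of *Prf1* and *Gzmb* begin at 61297833 and, on the minus strand, at 56262260.

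**Figure D1:**
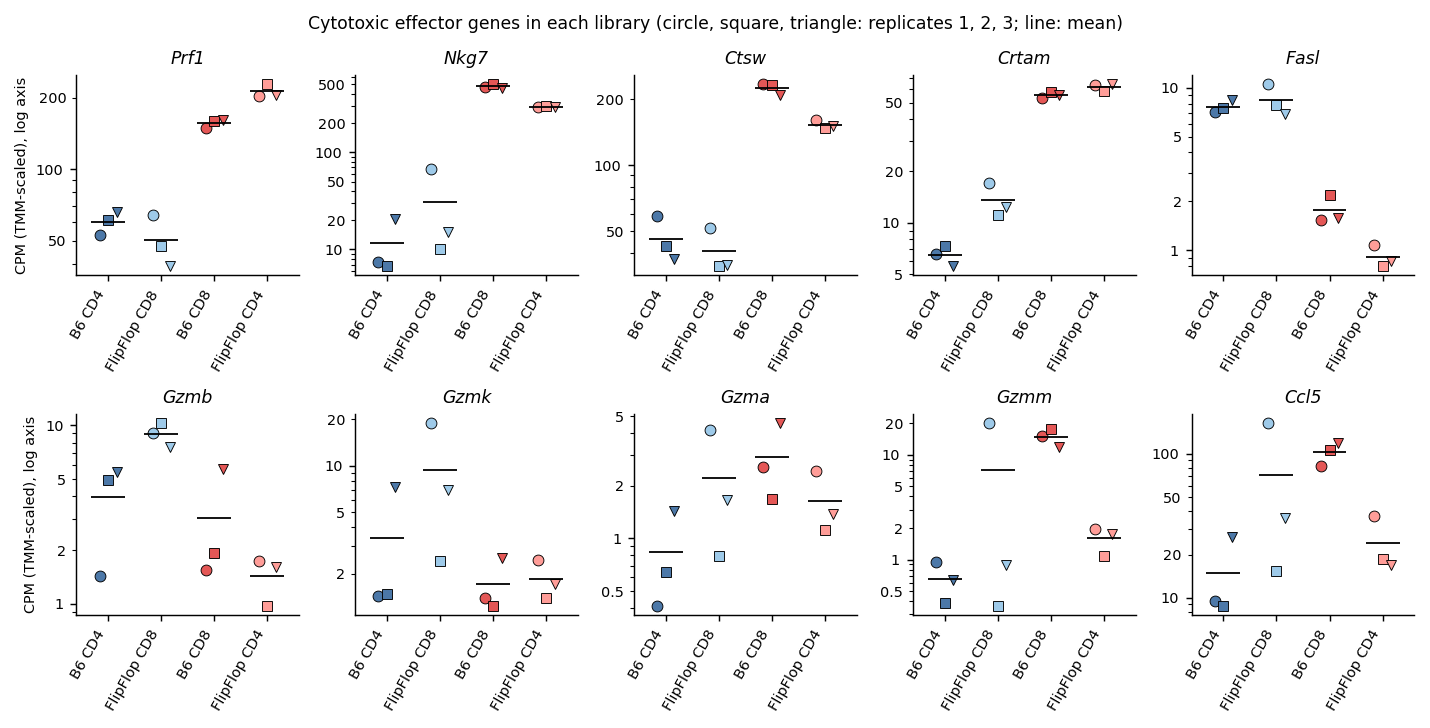
Level of each effector gene in CPM (log axis) in the 12 libraries, by group; circles, squares and triangles are replicates 1, 2 and 3 and lines are group means. *Prf1*, *Nkg7*, *Ctsw* and *Crtam* sat higher in all 6 cytotoxic-lineage libraries than in the helper-lineage libraries, *Fasl* lower, and FlipFlop CD8 replicate 1 stood above its group for *Gzmm*, *Ccl5*, *Nkg7* and *Gzmk*.

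To see which effector genes differ between the lineages in unaltered mice, B6 CD8 T cells were compared with B6 CD4 T cells, and the same difference was then taken between FlipFlop CD4 and FlipFlop CD8 T cells, whose means come from other libraries, although both comparisons share 1 estimate of the spread over all 12. Of the 10 genes, 8 differed between the B6 groups (adjusted p-value under 0.05), where 25.4% of all tested genes did: 7 were higher in CD8 T cells (background 10.8%) and *Fasl* was lower (background 14.6%). In FlipFlop T cells 6 of 10 differed, against 31.3% of all tested genes. *Prf1*, *Nkg7*, *Ctsw* and *Crtam* were higher in FlipFlop CD4 than in FlipFlop CD8 T cells (background 15.3%), and *Fasl* and *Gzmb* were lower (background 16.0%). The median difference of the 10 genes on the log2(CPM + 0.5) scale was 1.84 in the B6 comparison and -0.34 in the FlipFlop comparison, beside medians of 0.00 and 0.04 over all tested genes. The FlipFlop median turned to 0.61 without FlipFlop CD8 replicate 1, and was -1.0 and -0.64 without replicates 2 and 3 of that group and -0.53 and -0.16 without replicates 1 and 2 of FlipFlop CD4. Over the 6 effector genes that average at least 5 CPM the medians were 2.95 in the B6 and 2.01 in the FlipFlop comparison. The same 4 genes were thus higher in cytotoxic-lineage cells of both strains, as were 6.88% of all tested genes, and 1, *Fasl*, was higher in helper-lineage cells of both, as were 10.1%. The libraries of both lineages did not overlap for 8 of the 10 genes in B6 and 6 of 10 in FlipFlop T cells, beside 37.8% and 47.2% of all tested genes. Genes called in both strains in opposite directions numbered 0 of the 10, beside 0.440% of all tested genes. With bulk RNA, fewer cells that express a gene and less RNA per cell cannot be told apart.

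**Figure D2:**
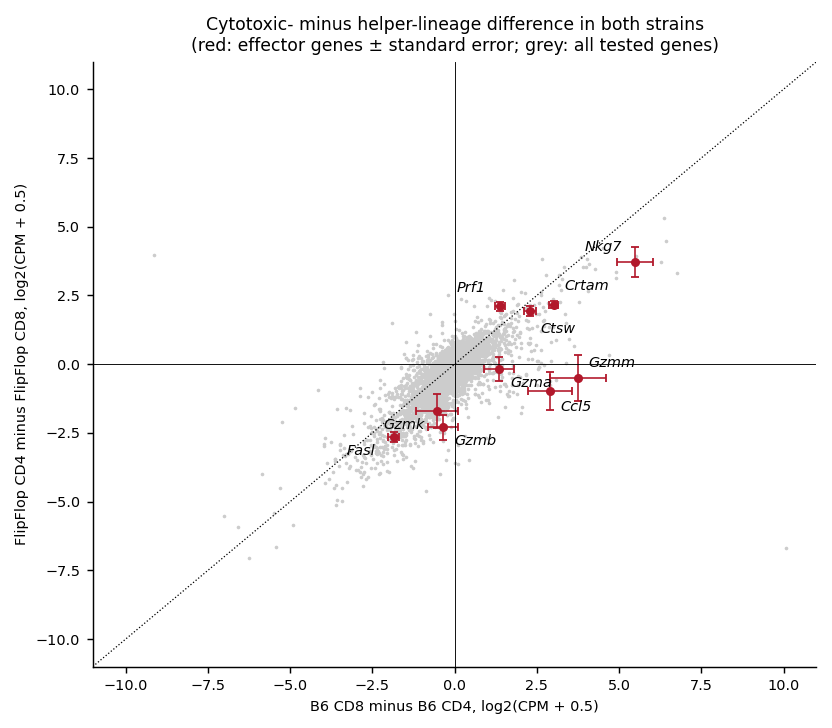
Difference between lineages in B6 T cells (x axis) and FlipFlop T cells (y axis) on the log2(CPM + 0.5) scale, with standard errors, for the effector genes (red) and all tested genes (grey); the dotted line marks equal differences. *Prf1*, *Nkg7*, *Ctsw* and *Crtam* lie at the upper right and *Fasl* at the lower left, whereas *Gzmm* and *Ccl5* lie below the line, at 3.74 and 2.90 in B6 and -0.50 and -0.98 in FlipFlop T cells.

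*Prf1* encodes perforin. It measured 52.7, 61.0 and 66.3 CPM in the B6 CD4 group and 149.2, 160.1 and 161.9 CPM in the B6 CD8 group. It measured 64.4, 47.6 and 39.1 CPM in the FlipFlop CD8 group and 204.2, 229.2 and 205.9 CPM in the FlipFlop CD4 group. No helper-lineage library reached the lowest cytotoxic-lineage library of either strain. The mean was 2.62-fold higher in B6 CD8 than B6 CD4 T cells (log2 difference 1.39, standard error 0.15, adjusted p = 1.69e-05) and 4.23-fold higher in FlipFlop CD4 than FlipFlop CD8 T cells (2.10, standard error 0.15, adjusted p = 3.62e-07). In order of level FlipFlop CD4 came first, then B6 CD8, and the libraries of these groups did not overlap, whereas those of B6 CD4 and FlipFlop CD8 T cells did.

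*Nkg7*, a membrane protein of cytotoxic granules, had the widest range. It measured 7.48, 6.71 and 20.6 CPM in the B6 CD4 group and 469.6, 508.9 and 460.6 CPM in the B6 CD8 group. The FlipFlop CD4 libraries stood at 295.5, 296.7 and 293.5 CPM and the FlipFlop CD8 libraries at 67.3, 10.1 and 15.1 CPM. Replicate 3 of B6 CD4 and replicate 1 of FlipFlop CD8 were high for their groups, yet both stayed far below the cytotoxic-lineage libraries. The B6 means differed 41.3-fold (log2 difference 5.49, standard error 0.55, adjusted p = 1.21e-05) and the FlipFlop means 9.57-fold (3.73, standard error 0.55, adjusted p = 2.41e-04). Without B6 CD4 replicate 3 the B6 difference was 5.98, and without FlipFlop CD8 replicate 1 the FlipFlop difference was 4.53.

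*Ctsw* encodes cathepsin W, a cysteine protease found mainly in CD8 T and NK cells. It measured 58.8, 42.9 and 37.6 CPM in the B6 CD4 group and 235.5, 232.3 and 208.6 CPM in the B6 CD8 group. In FlipFlop mice it measured 52.1, 34.7 and 35.1 CPM in CD8 and 161.0, 147.8 and 150.5 CPM in CD4 T cells. The lineages did not overlap in either strain, with differences of 2.29 in B6 (4.86-fold, adjusted p = 7.02e-07) and 1.93 in FlipFlop T cells (3.77-fold, adjusted p = 2.60e-06), each with a standard error of 0.17.

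*Crtam*, an adhesion receptor of activated cytotoxic cells, varied little between replicates. It measured 6.54, 7.30 and 5.58 CPM in the B6 CD4 group, 17.1, 11.1 and 12.4 CPM in the FlipFlop CD8 group, 53.0, 57.7 and 55.3 CPM in the B6 CD8 group, and 63.0, 58.1 and 64.5 CPM in the FlipFlop CD4 group. No library of one group overlapped with another group. The lineage difference was 3.01 in B6 (8.55-fold, adjusted p = 1.27e-08) and 2.17 in FlipFlop T cells (4.57-fold, adjusted p = 1.72e-07), each with a standard error of 0.14.

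*Fasl*, which encodes Fas ligand, went the other way. It measured 7.10, 7.52 and 8.36 CPM in the B6 CD4 group and 10.6, 7.80 and 6.92 CPM in the FlipFlop CD8 group. In cytotoxic-lineage cells it measured 1.54, 2.20 and 1.59 CPM in the B6 CD8 group and 1.08, 0.797 and 0.855 CPM in the FlipFlop CD4 group. Every helper-lineage library thus stood above every cytotoxic-lineage library, by 4.32-fold between the means in B6 (log2 difference -1.85, standard error 0.17, adjusted p = 4.38e-06) and 9.25-fold in FlipFlop T cells (-2.65, standard error 0.17, adjusted p = 1.70e-07).

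The granzymes were low. *Gzmb* encodes granzyme B, the granzyme that cleaves caspases. It measured 1.43, 4.97 and 5.51 CPM in the B6 CD4 group, 1.54, 1.92 and 5.67 CPM in the B6 CD8 group, 1.74, 0.979 and 1.60 CPM in the FlipFlop CD4 group, and 9.0, 10.3 and 7.54 CPM in the FlipFlop CD8 group. The B6 groups overlapped, with a difference of -0.35 (95% interval -1.33 to 0.62, adjusted p = 0.627). The FlipFlop groups did not overlap, and CD4 T cells were 6.22-fold lower than CD8 T cells (log2 difference -2.30, standard error 0.45, adjusted p = 0.00182).

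*Gzmk*, the neighbor of *Gzma*, encodes a granzyme found in memory T cells. It measured 1.43, 1.48 and 7.23 CPM in the B6 CD4 group, 1.39, 1.24 and 2.52 CPM in the B6 CD8 group, 2.43, 1.38 and 1.71 CPM in the FlipFlop CD4 group, and 18.9, 2.41 and 6.97 CPM in the FlipFlop CD8 group. One library was high in each helper-lineage group and the groups overlapped in both strains. The difference was -0.53 in the B6 comparison (adjusted p = 0.604), or 0.13 without B6 CD4 replicate 3, and -1.71 in the FlipFlop comparison (standard error 0.63, adjusted p = 0.0581). With the replicate number as a block, which treats same-numbered libraries as pairs, the FlipFlop difference passed the test (adjusted p = 0.00795). It also passed without the TMM factor (-1.86, adjusted p = 0.0401), without B6 CD4 replicate 3 (adjusted p = 0.0256) and without FlipFlop CD8 replicate 2 (-2.39, adjusted p = 0.0107), and without FlipFlop CD8 replicate 1 it was -1.02 (adjusted p = 0.218).

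*Gzma* encodes granzyme A, a trypsin-like granzyme. It measured 0.413, 0.646 and 1.44 CPM in the B6 CD4 group, 2.55, 1.68 and 4.57 CPM in the B6 CD8 group, 2.43, 1.12 and 1.38 CPM in the FlipFlop CD4 group, and 4.18, 0.794 and 1.66 CPM in the FlipFlop CD8 group. The B6 libraries did not overlap, and CD8 T cells were 3.52-fold higher (log2 difference 1.35, standard error 0.45, adjusted p = 0.0468). That call was lost when a pseudocount of 1 replaced 0.5 (adjusted p = 0.0531), without the TMM factor (0.0561), with a linear model that does not share the spread across genes (0.116) and without any of 7 single libraries, B6 CD8 replicate 3 among them (1.03, adjusted p = 0.181). In FlipFlop T cells the difference was -0.18 (95% interval -1.17 to 0.81), and it was 0.31 without FlipFlop CD8 replicate 1.

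*Gzmm* encodes granzyme M, which is known from NK cells. It measured 0.939, 0.387 and 0.643 CPM in the B6 CD4 group and 15.2, 17.5 and 11.9 CPM in the B6 CD8 group, a 22.6-fold difference of means (log2 difference 3.74, standard error 0.85, adjusted p = 0.00580). It measured 1.94, 1.09 and 1.75 CPM in the FlipFlop CD4 group. In FlipFlop CD8 T cells it measured 20.1 CPM in replicate 1 and 0.364 and 0.886 CPM in the others. A single library therefore set the FlipFlop difference, which was -0.50 (95% interval -2.35 to 1.35, adjusted p = 0.710) with it and 0.91 (adjusted p = 0.0317) without it.

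*Ccl5* encodes a chemokine that memory CD8 T cells keep as stored message. It measured 9.47, 8.84 and 26.6 CPM in the B6 CD4 group, 82.2, 106.2 and 118.8 CPM in the B6 CD8 group, 37.2, 18.5 and 16.8 CPM in the FlipFlop CD4 group, and 163.6, 15.3 and 35.8 CPM in the FlipFlop CD8 group. B6 CD8 T cells were 6.84-fold higher than B6 CD4 T cells (log2 difference 2.90, standard error 0.68, adjusted p = 0.00705). Without B6 CD4 replicate 3 this difference was 3.40 (adjusted p = 0.00440). The FlipFlop groups overlapped, with a difference of -0.98 (adjusted p = 0.318) that was -0.05 (adjusted p = 0.956) without FlipFlop CD8 replicate 1.

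To compare one gene with another, levels were divided by the length of the merged exons, which runs from 0.914 kb for *Nkg7* to 5.13 kb for *Crtam*. On this scale *Nkg7* alone made up 62.5% of the summed level of the 10 genes in B6 CD8 and 61.1% in FlipFlop CD4 T cells, at 524.9 ± 28.1 and 323.0 ± 1.79 CPM per kb (SD, n = 3). In B6 CD4 T cells *Ctsw* and *Prf1* led, with 29.6% and 27.1%, and *Nkg7* held 13.5%. In FlipFlop CD8 T cells *Ccl5* came first as a mean, at 34.9% of the sum, but its share was as high as 49.7% in 1 library. *Nkg7*, *Ctsw*, *Prf1* and *Ccl5* had the highest means in each of the 4 groups. Of the granzymes and *Fasl* the highest group mean was 10.1 ± 1.92 CPM per kb (SD, n = 3) for *Gzmm* in B6 CD8 T cells.

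**Figure D3:**
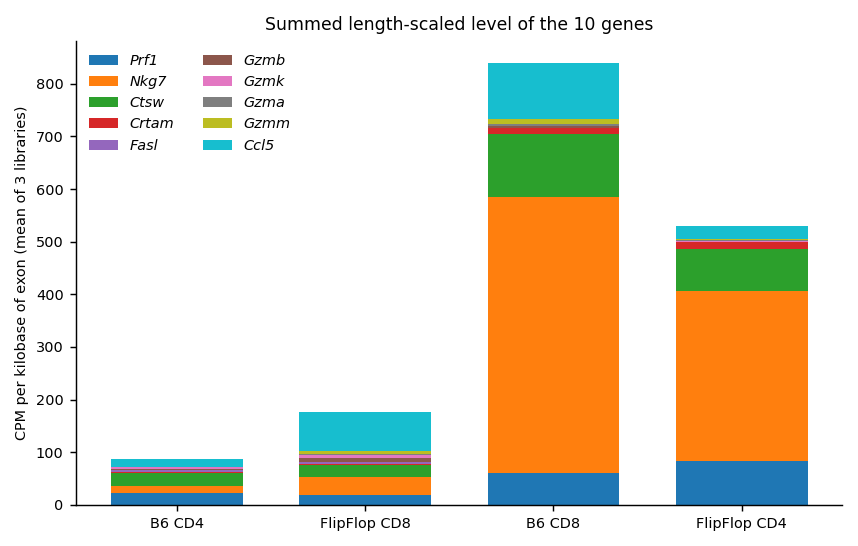
Summed level of the 10 effector genes in CPM per kilobase of exon, as the mean of the 3 libraries of each group, stacked by gene. *Nkg7* fills most of the bars of both cytotoxic-lineage groups, and *Ccl5* is the largest part in FlipFlop CD8 T cells. Its mean there is raised by replicate 1, at 163.6 CPM against 15.3 and 35.8 CPM in the others.

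Cells of the same lineage were then compared between strains. In cytotoxic-lineage cells, FlipFlop CD4 minus B6 CD8, 1 of the 10 genes was called, beside 7.92% of all tested genes. None of the 10 was higher in FlipFlop CD4 (background 4.17%) and 1 was lower (background 3.75%). It was *Fasl*, with means of 0.912 and 1.78 CPM, a difference of -0.68 (standard error 0.17, adjusted p = 0.0259). *Gzmm*, *Ccl5* and *Ctsw* were lower and *Prf1* higher in every FlipFlop CD4 than in every B6 CD8 library, with differences of -2.88, -2.14, -0.56 and 0.44 and adjusted p-values of 0.0599, 0.0799, 0.0650 and 0.0911. *Nkg7*, at 293.5 to 296.7 against 460.6 to 508.9 CPM, had a difference of -0.70 (adjusted p = 0.493). That fit shares 1 spread over all 4 groups. Fitted on these 6 libraries alone, 6 of the 10 genes were called, *Fasl* and also *Nkg7* (adjusted p = 3.56e-04), *Gzmm* (1.22e-04), *Ctsw* (0.00224), *Ccl5* (0.00369) and *Prf1* (0.00624), beside 8.99% of all genes. Without FlipFlop CD8 replicate 1, which enters this comparison through the shared spread only, 5 were called (*Fasl*, *Gzmm*, *Ccl5*, *Ctsw* and *Prf1*) beside 7.61% of all tested genes, and 0 were called without either of replicates 2 and 3 of B6 CD8 or of FlipFlop CD4 T cells. Libraries of the FlipFlop CD4 and B6 CD8 groups did not overlap for 7 of the 10 genes and for 32.4% of all tested genes.

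In helper-lineage cells, FlipFlop CD8 minus B6 CD4, 1 gene was called, beside 27.6% of all tested genes, and it was higher in FlipFlop CD8 (background 13.2%), with 0 lower (background 14.4%). It was *Crtam*, 2.09-fold higher in FlipFlop CD8 T cells (log2 difference 0.99, standard error 0.14, adjusted p = 4.45e-04). *Gzmb* was higher in every FlipFlop CD8 library, at 7.54 to 10.3 against 1.43 to 5.51 CPM, with a difference of 1.23 that missed the threshold (adjusted p = 0.0573). It passed with a pseudocount of 1 (adjusted p = 0.0493), without the TMM factor (0.0389), with the replicate number as a random block (0.0493) and without B6 CD8 replicate 3 (0.0318) or B6 CD4 replicate 3 (0.0323). For *Fasl*, *Ctsw* and *Prf1* the differences were 0.11 (95% interval -0.25 to 0.47), -0.19 (-0.56 to 0.17) and -0.27 (-0.59 to 0.04). *Nkg7*, *Gzmk*, *Gzma*, *Gzmm* and *Ccl5* overlapped as well, so that 2 of the 10 genes did not overlap, beside 43.6% of all tested genes. Without B6 CD4 replicate 3, 5 genes were called in place of 1, namely *Crtam*, *Nkg7* (1.56, adjusted p = 0.0493), *Gzmb* (1.53), *Gzmk* (1.94) and *Ccl5* (2.24), beside 32.4% of all tested genes. Without FlipFlop CD8 replicate 1 they were *Crtam* and *Prf1* (-0.47, adjusted p = 0.0156), beside 24.1%, and *Gzmm* and *Fasl* stood at -0.05 each.

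**Figure D4:**
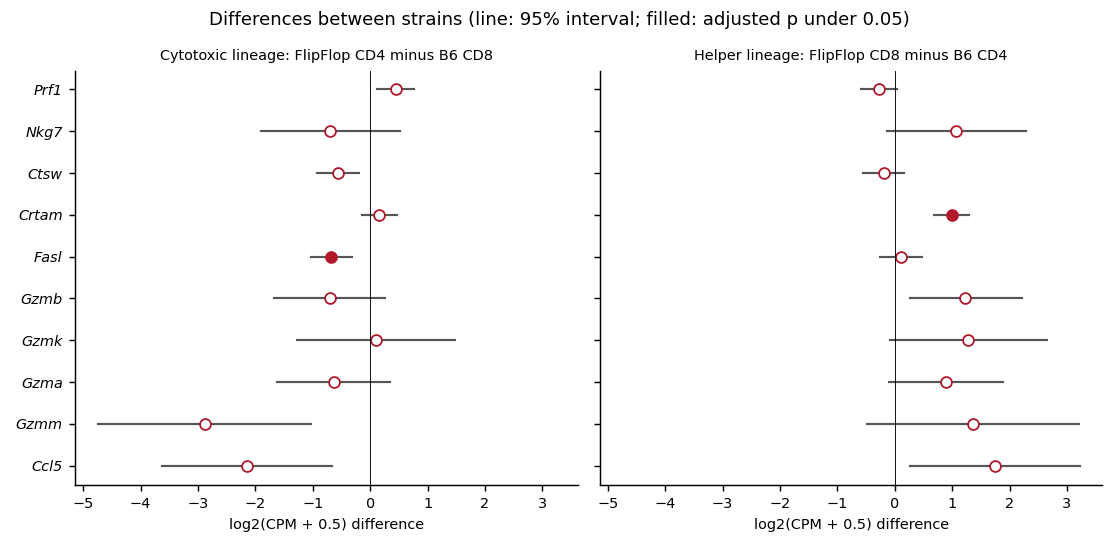
Difference between strains for each effector gene on the log2(CPM + 0.5) scale in cytotoxic-lineage cells (left) and helper-lineage cells (right), with 95% intervals; filled points passed the test. *Fasl* on the left (-0.68) and *Crtam* on the right (0.99) are filled, and the widest intervals belong to *Gzmm*, *Ccl5* and *Gzmk*.

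Whether the lineage difference itself differed between the strains was tested as the FlipFlop difference minus the B6 difference. Of the 10 genes, 2 passed, beside 5.49% of all tested genes, both with a negative value (background 3.78%, and 1.71% for positive values, where none of the 10 passed). They were *Ccl5* (-3.88, standard error 0.96, adjusted p = 0.0359) and *Crtam* (-0.83, standard error 0.19, adjusted p = 0.0273). For *Crtam* the strains differed by 0.99 in helper-lineage cells and by 0.16 (95% interval -0.14 to 0.46) in cytotoxic-lineage cells. *Prf1* had a value of 0.71 (adjusted p = 0.0704), *Gzmm* -4.24 (0.0654), *Fasl* -0.79 (0.0780), *Gzmb* -1.94 (0.110), *Gzma* -1.53 (0.222), *Nkg7* -1.76 (0.252), *Gzmk* -1.18 (0.518) and *Ctsw* -0.36 (0.444). With the replicate number as a block 7 of 10 passed, beside 8.23% of all genes: *Ccl5*, *Crtam*, *Prf1*, *Gzmm*, *Fasl*, *Gzmb* and *Gzma*. That block treats same-numbered CD4 and CD8 libraries of a strain as pairs, which no label states. Without FlipFlop CD8 replicate 1, *Ccl5* stood at -2.95 (adjusted p = 0.0320) and *Crtam* at -0.66 (adjusted p = 0.0320), and *Prf1* (0.90) and *Gzmm* (-2.83) passed as well. Without B6 CD4 replicate 3 *Crtam* no longer passed (-0.74, adjusted p = 0.0516). The call of *Crtam* was lost without any of 6 single libraries and that of *Ccl5* without any of 8.

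FlipFlop CD8 replicate 1 and B6 CD4 replicate 3 stood apart from their groups in the effector genes. Both libraries were picked after the values of these genes were seen. The counts that follow are therefore a description and no test, and the same count was not taken in the other libraries. In FlipFlop CD8 replicate 1, 5 of the 10 genes were above both other libraries of the group by more than 2-fold over their mean on the log2(CPM + 0.5) scale, as were 0.664% of all tested genes. They were *Gzmm* (20.1 CPM, 32.1 times the mean of the others), *Ccl5* (6.41 times), *Nkg7* (5.35 times), *Gzmk* (4.03 times) and *Gzma* (3.41 times). *Gzmb* was at 1.01 times and *Prf1* at 1.49 times. In B6 CD4 replicate 3, 3 of the 10 genes were above in this way, beside 0.862% of all tested genes: *Gzmk* (4.96 times), *Ccl5* (2.91 times) and *Nkg7* (2.91 times).

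Other genes of effector and memory T cells were followed in these libraries, and some of them were high there. *Klrg1*, a receptor of effector and memory T cells, measured 46.3 CPM in FlipFlop CD8 replicate 1 and 14.7 and 15.4 CPM in the others. *Cx3cr1*, a chemokine receptor of effector T cells, measured 3.34 against 0.331 and 0.829 CPM there, and 4.50 CPM in B6 CD4 replicate 3 against 0.150 and 0.742 CPM. *Ifng*, which encodes interferon-γ, measured 5.39 CPM in B6 CD4 replicate 3 against 0.825 and 0.581 CPM, and *Tbx21*, which encodes T-bet, 11.4 against 3.19 and 4.23 CPM. *Klrd1*, which NK cells also express, was at most 4.27 CPM in the FlipFlop CD8 group, and *Zbtb16* was lower in replicate 1 (4.31 against 10.2 and 9.29 CPM). *Cd44*, an activation marker, was at 1.13 times the mean of the others in FlipFlop CD8 replicate 1 and at 0.991 times in B6 CD4 replicate 3. In the latter *Cxcr3*, *Klrg1* and *Eomes* were at 1.02, 1.37 and 1.24 times. The part of these genes in the result was not tested.

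**Figure D5:**
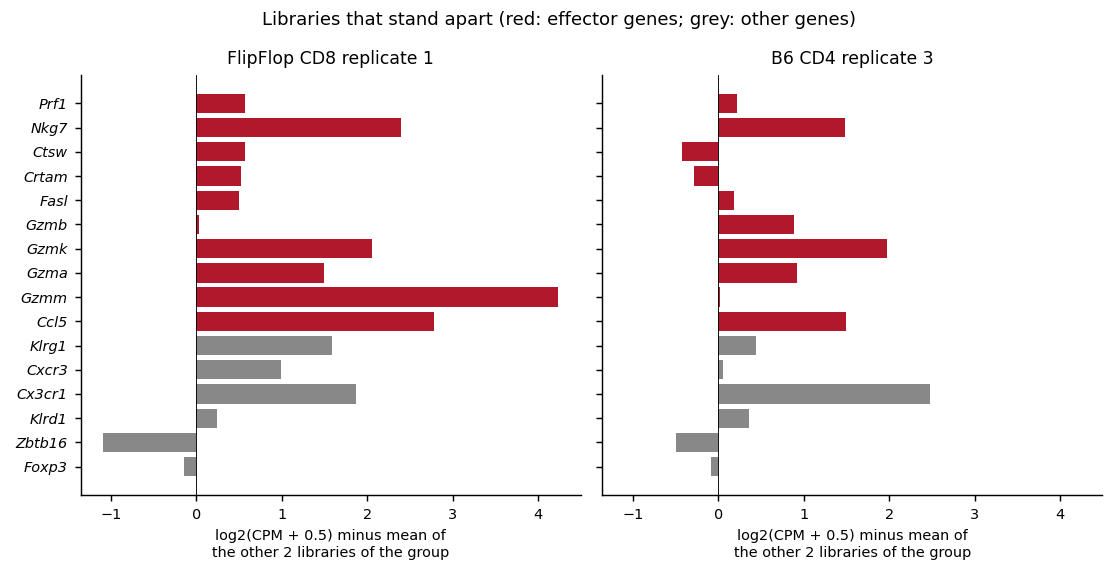
Log2(CPM + 0.5) in FlipFlop CD8 replicate 1 (left) and B6 CD4 replicate 3 (right) minus the mean of the other 2 libraries of the group, for the effector genes (red) and other genes (grey). *Gzmm*, *Ccl5* and *Nkg7* reach 4.23, 2.78 and 2.40 on the left, and *Cx3cr1*, *Gzmk* and *Ccl5* reach 2.48, 1.98 and 1.49 on the right.

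Markers of other cells were followed beside these genes, and their counts stand beside shares over all tested genes of 10.8% higher and 14.6% lower in B6 CD8 than B6 CD4 and of 15.3% higher and 16.0% lower in FlipFlop CD4 than FlipFlop CD8 T cells. Of 14 NK cell markers 8 were in the table, and their summed level was 15.7 to 19.4 CPM in the B6 CD4 group, 30.8 to 32 CPM in the FlipFlop CD8 group, 52.3 to 64.5 CPM in the FlipFlop CD4 group and 96.5 to 129.8 CPM in the B6 CD8 group. In the cytotoxic-lineage groups most of it was *Klrd1*, at 84.6 to 107.3 CPM in the B6 CD8 group and 44.8 to 57.2 CPM in the FlipFlop CD4 group, against at most 6.71 CPM in helper-lineage cells, while *Fcer1g* and *Tyrobp*, signaling chains of NK cells, measured at most 1.92 and 1.88 CPM in any library. The NK sum was highest in the B6 CD8 group, as were *Nkg7* and *Ctsw*. Of the 7 NK markers tested, 3 were higher and 1 lower in B6 CD8 than B6 CD4 T cells, and 1 was higher and 4 were lower in FlipFlop CD4 than FlipFlop CD8 T cells. Their part in the result was not tested. Markers of NKT and innate-like T cells (4 of 6 in the table) summed to 248.4 to 254.1 CPM in the B6 CD8 group, 85.0 to 117.5 CPM in the FlipFlop CD8 group, 73.4 to 88.0 CPM in the FlipFlop CD4 group and 20.3 to 40.2 CPM in the B6 CD4 group. Nearly all of the B6 CD8 sum was *Cxcr6*, a chemokine receptor of tissue-homing T cells, at 245.4 to 251.9 CPM, while *Zbtb16*, the defining factor of NKT cells, was at most 0.0663 CPM there and 4.31 to 10.2 CPM in the FlipFlop CD8 group. In FlipFlop CD4 T cells 0 of these 4 were higher and 3 lower than in FlipFlop CD8 T cells, against 1 higher and 2 lower in the B6 comparison. Gamma delta T cell markers (6 of 10 in the table) summed to at most 29.2 CPM in any library, and 0 were higher and 4 lower in FlipFlop CD4 than FlipFlop CD8 T cells, with 1 higher and 2 lower in the B6 comparison. Markers of naive T cells (all 11 in the table) were lowest in the FlipFlop CD8 group, at 5661 to 5909 CPM in sum against 7059 to 8012 CPM in the other groups, and 7 were higher and 0 lower in FlipFlop CD4 than FlipFlop CD8 T cells, with 2 higher and 2 lower in the B6 comparison. Markers of memory or effector T cells, all 16 of which were in the table, summed to 783.2 to 1060 CPM in the B6 CD4 group, 1155 to 1274 CPM in the FlipFlop CD4 group, 1724 to 1904 CPM in the B6 CD8 group and 1629 to 2038 CPM in the FlipFlop CD8 group, and 10 of the 15 tested were lower in FlipFlop CD4 than in FlipFlop CD8 T cells and 1 was higher, with 5 higher and 5 lower in the B6 comparison. The part of these cells in the results was not tested. Markers of regulatory T cells (9 of 10 in the table) summed to 667.6 to 803.4 CPM in the B6 CD4 group and 1449 to 1643 CPM in the FlipFlop CD8 group, and to at most 198.8 CPM in the other groups. *Gzmb* was also highest in the FlipFlop CD8 group, and the part of regulatory T cells in this was not tested. Myeloid markers (6 of 12 in the table) summed to at most 30.5 CPM and B cell markers (all 10) to 561.6 to 700.0 CPM, of which *Ighm* made up most.

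Other genes of the killing pathway were taken from lists by function. Beside the counts of these lists stand 10.8% of all tested genes higher and 14.6% lower in B6 CD8 than B6 CD4 T cells, and 15.3% higher and 16.0% lower in FlipFlop CD4 than FlipFlop CD8 T cells. Among other granule proteins, of which 10 of 16 were tested, 3 were higher and 1 lower in B6 CD8 than B6 CD4 T cells, and 2 higher and 3 lower in FlipFlop CD4 than FlipFlop CD8 T cells. *Ctsc*, the protease that activates granzymes, was higher in cytotoxic-lineage cells of both strains, at 153.1 against 103.1 CPM in B6 (log2 difference 0.57, adjusted p = 2.98e-04) and 114.8 against 83.8 CPM in FlipFlop T cells (0.45, adjusted p = 0.00160). *Ctsb*, the lysosomal protease cathepsin B, was lower in cytotoxic-lineage cells of both strains, at 193.8 against 310.6 CPM in B6 (-0.68, adjusted p = 1.10e-05) and 210.6 against 309.0 CPM in FlipFlop T cells (-0.55, adjusted p = 4.89e-05). *Srgn*, the granule proteoglycan, was lower in FlipFlop CD4 than in FlipFlop CD8 T cells (217.6 against 334.8 CPM, -0.63, adjusted p = 0.00114), and measured 265.7 and 279.0 CPM in B6 CD8 and B6 CD4 T cells (-0.08, adjusted p = 0.689).

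Of 20 tested genes for granule transport and release, 2 were higher and 5 lower in B6 CD8 T cells, and 0 higher and 5 lower in FlipFlop CD4 T cells, with medians of -0.02 and -0.05. *Stx11*, a syntaxin needed for granule release, was 4.44-fold lower in B6 CD8 than B6 CD4 T cells (3.09 and 13.7 CPM, adjusted p = 8.49e-06) and 7.45-fold lower in FlipFlop CD4 than FlipFlop CD8 T cells (3.98 and 29.7 CPM, adjusted p = 3.89e-07). *Rab27a*, which docks granules, was lower in cytotoxic-lineage cells of both strains, by 1.35-fold in B6 (adjusted p = 7.30e-04) and 1.40-fold in FlipFlop T cells (adjusted p = 2.39e-04). *Sytl3*, a synaptotagmin-like protein, was 8.70-fold higher in B6 CD8 than B6 CD4 T cells (26.9 and 3.09 CPM, adjusted p = 4.10e-04), but measured 3.17 and 4.09 CPM in FlipFlop CD4 and FlipFlop CD8 T cells, with a correlation of 0.904 with *Gzmm* over the 12 libraries.

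Inhibitors of granule enzymes included *Cst7*, which encodes cystatin F, an inhibitor of granule cathepsins. It was higher in cytotoxic-lineage cells of both strains, 4.80-fold in B6 (105.3 and 22.0 CPM, adjusted p = 4.54e-06) and 1.63-fold in FlipFlop T cells (64.3 and 39.5 CPM, adjusted p = 0.0145), where the libraries overlapped. Of 7 such genes tested, 2 were higher and 1 lower in B6 and 1 higher and 2 lower in FlipFlop T cells. *Serpinb6a*, a serpin, was lower in cytotoxic-lineage cells of both strains, by 1.61-fold in B6 and 1.69-fold in FlipFlop T cells.

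Death ligands, receptors and adaptors, all 16 of them tested, had 2 higher and 5 lower genes in B6 CD8 T cells and 2 higher and 6 lower genes in FlipFlop CD4 T cells. *Tnf*, a ligand of death receptors, went with *Fasl*: it was 2.44-fold lower in B6 CD8 than B6 CD4 T cells (6.20 and 15.1 CPM, adjusted p = 4.72e-06) and 2.42-fold lower in FlipFlop CD4 than FlipFlop CD8 T cells (6.44 and 15.6 CPM, adjusted p = 4.39e-06). *Bid*, a substrate of granzyme B, was 1.65-fold and 1.64-fold higher in the cytotoxic-lineage cells.

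Among other chemokines, receptors of *Ccl5* and partners of *Crtam*, 7 genes were tested, of which 2 were higher and 2 lower in B6 CD8 T cells and 1 higher and 2 lower in FlipFlop CD4 T cells. The lower genes were *Ccr3*, a receptor of *Ccl5* (-1.56 for B6 and -3.30 for FlipFlop), and *Scrib*, a polarity protein and no chemokine (-0.35 and -0.20). *Ccr3* averaged 0.0374 CPM in the B6 CD8 and 0.0124 CPM in the FlipFlop CD4 group, under the level that 3 reads are worth. It averaged 1.12 CPM in the B6 CD4 and 4.55 CPM in the FlipFlop CD8 group. The size of its differences therefore depends on the pseudocount. *Xcl1*, a chemokine that draws cross-presenting dendritic cells, was 16.0-fold higher in B6 CD8 T cells (12.7 and 0.790 CPM, adjusted p = 2.61e-07) and 3.32-fold higher in FlipFlop CD4 T cells (6.41 and 1.93 CPM, adjusted p = 2.35e-04). *Ccl4*, a chemokine of activated T cells, was higher in B6 CD8 T cells (3.42 and 0.371 CPM, adjusted p = 2.24e-04), and measured 1.31 and 1.14 CPM in FlipFlop CD4 and FlipFlop CD8 T cells, which overlapped (0.20, adjusted p = 0.696).

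Of 30 transcription factors that act on effector genes, 7 were higher and 12 lower in B6 CD8 T cells, and 5 higher and 16 lower in FlipFlop CD4 T cells. *Eomes* was 9.72-fold higher in B6 CD8 (69.1 and 7.11 CPM, adjusted p = 1.06e-05) and 4.80-fold higher in FlipFlop CD4 T cells (64.9 and 13.5 CPM, adjusted p = 1.42e-04). *Runx3* was 1.74-fold and 2.41-fold higher. *Tbx21* was 3.92-fold higher in B6 CD8 T cells (24.6 and 6.26 CPM, adjusted p = 0.00184), whereas FlipFlop CD4 and FlipFlop CD8 T cells overlapped at means of 7.98 and 14.0 CPM (-0.69, adjusted p = 0.219), and FlipFlop CD4 was lower than B6 CD8 (-1.60, adjusted p = 0.0284). B6 CD4 replicate 3 raised the B6 CD4 mean of *Tbx21*, at 11.4 CPM against 3.19 and 4.23 CPM in the others. *Foxp3* was lower in cytotoxic-lineage cells, at 0.967 against 108.2 CPM in B6 and 1.99 against 326.0 CPM in FlipFlop T cells.

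The study used a limit of more than 5-fold with a p-value under 0.0001 or under 0.05. By these limits, applied here to unadjusted p-values and to the fold on the log2(CPM + 0.5) scale, 2 and 4 of the 10 genes were called in B6 T cells, beside 1.55% and 1.57% of all tested genes, and 2 and 2 in FlipFlop T cells, beside 2.16% and 2.21%. *Gzmb*, 6.22-fold lower by its means in FlipFlop CD4 T cells, fell short of the fold on this scale (-2.30). *Nkg7* and *Crtam* passed the stricter limit in B6 and *Nkg7* and *Fasl* in FlipFlop T cells. Between cytotoxic-lineage cells 0 and 1 were called, beside 0.474% and 0.535%, and between helper-lineage cells 0 and 0, beside 0.405% and 0.448%. The difference between strains of the lineage difference gave 0 and 2, beside 0.388% and 0.535%.

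Correlations between the effector genes were taken across the 12 libraries as a description. *Prf1*, *Nkg7*, *Ctsw* and *Crtam* had Pearson correlations of 0.91 to 0.95 with each other on the log2(CPM + 0.5) scale, and *Fasl* ran against them, from -0.86 with *Nkg7* to -0.95 with *Prf1*. *Ccl5* had a correlation of 0.91 with *Gzma* and with *Gzmm*, and 0.27 with *Prf1*. *Nkg7* had values of 0.61 to 0.68 with *Ccl5*, *Gzma* and *Gzmm*. Between granzymes the values were 0.77 for *Gzma* with *Gzmm*, 0.69 for *Gzmb* with *Gzmk* and -0.08 for *Gzmb* with *Gzmm*, and *Gzmb* had 0.73 with *Fasl*. *Gzmk* and *Gzma*, neighbors in the genome, had a correlation of 0.46. Of genes outside the set, *Runx3* was the most like *Prf1* (0.984), *Mta3* the most like *Ctsw* (0.990), *Ptpn22* the most like *Nkg7* (0.982), *A930002I21Rik* the most like *Crtam* (0.995) and *Dhx40* the most like *Fasl* (0.991). *Zeb2* was the most like *Gzmk* (0.934), *Brip1* the most like *Gzmb* (0.937) and *Slamf7* the most like *Gzma* (0.908). *Ctla2a* was the most like both *Gzmm* (0.927) and *Ccl5* (0.956), and *Slamf7* (0.980) was the most like the mean of the 10 scaled genes. The 12 points share 4 groups, so that a lineage difference held in common by 2 genes raises the size of their value.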

How the data were processed

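Total RNA from sorted CD4 and CD8 T cells of B6 and FlipFlop LN was made into libraries with a low-input cDNA kit by the authors, who sequenced paired ends and aligned them to mm10 with STAR. The submitters' processing notes name Trimmomatic and TopHat, and the counting program, its use of strand and the annotation are not given in the sources used here. The authors deposited 1 table of expression signal, CPM divided by a TMM factor, for 12809 genes in 12 libraries. Its low values are whole reads for 84.8% to 86.4% of values under 100 CPM (within 0.001 reads of a whole number). The values under this limit are hundredths of a read in 100.0% of cases, and each effector gene had whole reads in all 12 libraries. No test on counts was run.

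Values were taken as log2(CPM + 0.5), which understates differences of low genes, and the 11595 genes that reached 1 CPM in 3 or more libraries were fitted with limma 3.58.1 (lmFit, eBayes with trend; R 4.3.3), with 1 mean per group, 12 libraries, 8 residual degrees of freedom and no replicate block. P-values were adjusted over all tested genes (Benjamini-Hochberg) and called under 0.05. Nothing says that libraries came from separate mice, so p-values measure only the spread between libraries, which may be technical. Positions come from GENCODE M21 and promoters from RefSeq. The effector genes, the pathway and marker lists and the rule for named genes (from each pathway list, the up to 3 largest called rises and falls of either lineage comparison, of which a selection is given, and for each effector gene the 3 most correlated genes, of which the first is given) were chosen with earlier results of these data known. Other genes of the marker lists were named after their values were seen. Same-numbered CD4 and CD8 libraries deviated together in FlipFlop (correlations 0.44, 0.27 and 0.51) and less so in B6 (0.18, 0.09 and 0.35). Deviations within a group cancel out, so these values depend on each other. No label says that same-numbered libraries share a mouse or a batch, so a pairing by number is not established in either strain. The fit was tested on simulated data. The figures come from matplotlib 3.10.9 (python 3.11.15).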

Additional observations from a re-analysis of the deposited data

Results flagged for a closer look

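The lineage difference of 2 effector genes differed between the strains, by the test of FlipFlop CD4 minus FlipFlop CD8 against B6 CD8 minus B6 CD4 T cells. *Crtam* had a value of -0.83 on the log2 scale (adjusted p = 0.0273), with lineage differences of 3.01 in B6 and 2.17 in FlipFlop T cells. *Ccl5* had a value of -3.88 (adjusted p = 0.0359), with 2.90 in B6 and -0.98 in FlipFlop T cells, the latter -0.05 without FlipFlop CD8 replicate 1. The call was lost without any of 6 single libraries for *Crtam* and any of 8 for *Ccl5*.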

How the results depend on the processing

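Of 50 differences (10 genes, 5 comparisons), the 18 called kept their direction under every alternative run, and 6 of the 32 not called changed sign under at least 1, of which 1 was then called: *Gzmm* between FlipFlop CD4 and FlipFlop CD8 T cells went from -0.50 to 0.91 without FlipFlop CD8 replicate 1 (range over single libraries left out, -1.38 to 0.91), and to 0.91 without this library and B6 CD4 replicate 3, a setting added after seeing the data. The other 5 were *Gzma* (FlipFlop lineage difference), *Gzmk* (B6 lineage difference and FlipFlop CD4 minus B6 CD8), and *Gzmm* and *Fasl* (FlipFlop CD8 minus B6 CD4). The median FlipFlop lineage difference of the 10 genes, -0.34, ran from -1.0 to 0.61 with single libraries left out, and was 2.01 over the 6 genes that average at least 5 CPM. Counts of called effector genes with single libraries left out ran from 7 to 8 for B6 CD8 against B6 CD4 (19.4% to 27.7% of all genes), 6 to 7 for FlipFlop CD4 against FlipFlop CD8 (23.5% to 38.2%), 0 to 5 for FlipFlop CD4 against B6 CD8 (4.24% to 13.6%), 1 to 5 for FlipFlop CD8 against B6 CD4 (13.3% to 32.4%) and 0 to 4 for the difference between strains of the lineage difference (3.07% to 5.23%). Without both libraries the last 3 counts were 6, 6 and 5, beside 7.55%, 29.3% and 3.57% of all genes.

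The study's limits (more than 5-fold with p under 0.0001, or under 0.05), applied here to unadjusted p-values and the log2(CPM + 0.5) fold, gave 2 and 4 genes in the B6 comparison, 2 and 2 in the FlipFlop comparison, 0 and 1 for FlipFlop CD4 against B6 CD8, 0 and 0 for FlipFlop CD8 against B6 CD4, and 0 and 2 for the difference between strains. For FlipFlop CD4 against B6 CD8, genes averaging at least 5 CPM gave 0, a linear model without eBayes 0, and the groups compared alone 6. For FlipFlop CD8 against B6 CD4, a pseudocount of 1, values without the TMM factor and the replicate block as a random effect each gave 2. The difference between strains gave 1 with genes averaging at least 5 CPM, 0 without eBayes, and 7 and 6 with the replicate block as a fixed and a random effect. The block changed no other call than those given here and *Gzmk* in FlipFlop T cells (adjusted p = 0.00795), which was also called without the TMM factor (7 genes in all).

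Taking out the TMM factor moved the median difference of all genes to -0.14 for FlipFlop CD4 against FlipFlop CD8 and to 0.15 for FlipFlop CD8 against B6 CD4. Adjusted p-values over the alternatives ran from 0.00684 to 0.0809 for *Crtam* and 0.00555 to 0.124 for *Ccl5* in the difference between strains. Low reads limit *Gzma*, *Gzmb*, *Gzmk*, *Gzmm* and *Fasl*, whose lowest library held 11 to 31 reads.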
